A study of Homo sapiens with 6 samples.

Results

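The transcripts examined here encode the amino acid transporters of 6 solute carrier families, SLC1, SLC3, SLC7, SLC36, SLC38 and SLC43, in BT-549, a human triple-negative breast cancer cell line. Members were taken by symbol alone (each listed gene named by one of these families, the letter A and a number), which gave 40 genes of the 37887 listed. They were grouped broadly by substrate as cationic (7 genes), large neutral (6), cystine (4) and glutamine (7) carriers, together with the glutamate and small neutral carriers of SLC1 (6), the proton-coupled SLC36 family (4) and the remaining SLC38 and SLC43 genes (6). RNA-seq compared 3 control samples, given 0.1% DMSO as vehicle, with 3 IRF1shRNA samples, given 500 ng/ml doxycycline, which switches on a short hairpin RNA (shRNA) against IRF1, a transcription factor of interferon signaling. The titles call the first group a control shRNA, whereas the series text describes cells with an inducible IRF1 hairpin throughout, with or without doxycycline. In both readings doxycycline reached only the silenced samples and DMSO only the controls. Their effects and that of losing IRF1 cannot be told apart, and a single hairpin against IRF1 was used. If the titles hold, the groups also differ in the hairpin they carry, which cannot be told apart either. Cells were grown in triplicate, the labels do not say whether the line is 1 clone, and p-values measure only the spread between these cultures. The IRF1shRNA samples are also called silenced here.

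Amino acids cross membranes by carriers that differ in substrate, in coupling ion and in whether they exchange one amino acid for another. Several SLC7 proteins are light chains that reach the cell surface only when bound by a disulfide to a heavy chain, SLC3A2 (CD98hc, 4F2hc) or SLC3A1. SLC7A5 (LAT1) with SLC3A2 takes up leucine, tryptophan and other large neutral amino acids in exchange for intracellular glutamine, SLC7A11 (xCT) with SLC3A2 brings in cystine for glutathione in exchange for glutamate, and SLC7A1 (CAT1) and SLC7A2 (CAT2) carry arginine and lysine without a heavy chain. Glutamine enters through SLC1A5 (ASCT2) and the sodium-coupled SLC38A1 (SNAT1) and SLC38A2 (SNAT2), and proliferating tumor cells commonly express these carriers at high levels.

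Total counts ran from 55143808, in IRF1shRNA replicate 2, to 160436234, and 3 counts, taken as the limit of detection, equalled 0.0182 to 0.054 CPM, the unit used below, which sets counts to a common library total by the TMM method. IRF1 was at 45.3, 48.1 and 51.5 CPM in the control and at 13.8, 14.9 and 14.6 CPM in the IRF1shRNA samples, 29.8% of control in the fit. All 4 mesenchymal markers were abundant, and in the group means VIM (918 to 625 CPM), FN1 (761 to 601) and CD44 (1550 to 1280) fell whereas SPARC (1200 to 1370) rose (edgeR adjusted p 3.1e-08, 5.44e-06, 4.07e-05 and 0.00166). Of 6 luminal and epithelial markers, which summed to 50.1 to 57.4 CPM in control and 36.3 to 39.8 CPM after silencing, ERBB2 (50.8 to 36.4 CPM) and KRT8 (1.52 to 0.441 CPM) fell. EPCAM (at most 0.158 CPM), PGR (at most 0.325 CPM) and CDH1 (0.532 to 0.802 CPM) were not called. ESR1 was not tested, with 4, 2 and 0 counts in control and 11, 8 and 12 counts in the silenced samples. Of 3 fibroblast markers, which summed to 3.59 to 4.33 CPM and 1.79 to 2.20 CPM, PDGFRA (2.90 to 1.35 CPM, log2 fold change −1.12) and DCN (0.709 to 0.386 CPM, −0.88) fell. The 4 leukocyte markers summed to at most 0.793 CPM, with CD3E at 0 in every control, and the 2 endothelial ones to at most 0.22 CPM. Among these leukocyte and endothelial genes only PTPRC had enough counts to be tested, and it was not called. The part of these markers in the results below was not tested.

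Of the 40 carriers, 30 had enough counts to be tested and 10 did not. The tested carriers split evenly: 9 were higher and 10 lower in IRF1shRNA than in control samples at a threshold of 0.05 on the adjusted p of edgeR's quasi-likelihood model (Benjamini-Hochberg, 18851 genes tested). Both directions were also about equally common among all genes, with 24.1% called higher and 26.4% lower, or 50.5% in all, against 63.3% of the tested carriers. A gene had to reach the count filter in at least a group of samples to be tested, so that the tested carriers do not stand for all 40. Past a fold change of 2 as well, 3 carriers were higher and 1 was lower, where 7.86% of all genes passed both thresholds. They include SLC7A9, with 9, 17 and 26 counts in control, and SLC1A6, with 18, 2 and 34 counts in IRF1shRNA samples. Each reached the filter in all 3 samples only of the group where it was higher. The samples of its other group would not have passed the filter alone. Both genes are also among the carriers called, and among those whose groups did not overlap. The CPM ranges of the groups did not overlap for 23 tested carriers, and for 56.8% of all genes tested. The median log2 fold change of the tested carriers was 0.06, and that of all genes −0.0024.

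**Figure D1:**
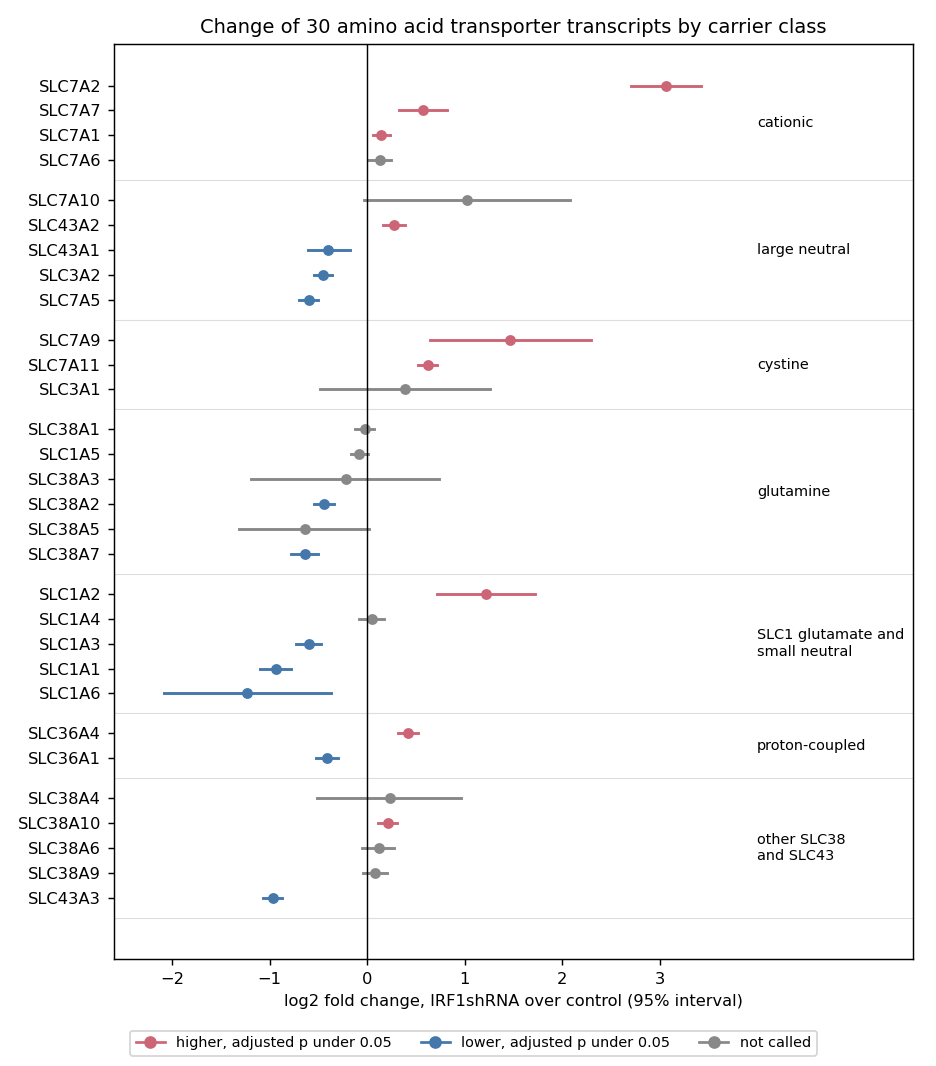
Log2 fold change of each tested carrier (IRF1shRNA over control) on the x axis, with its 95% interval as a line, for the 30 genes in rows grouped by class. Colors mark the call (adjusted p under 0.05, edgeR). The cationic and cystine carriers lie at or to the right of 0, up to 3.07 for SLC7A2, whereas SLC7A5, SLC3A2 and SLC38A2 lie to its left.

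The classes differed in which way their called members moved. Cationic carriers had 3 higher and 0 lower among 4 tested (median log2 fold change 0.36), and cystine carriers 2 higher and 0 lower among 3 (median 0.62). Large neutral carriers had 1 higher and 3 lower among 5 (median −0.40), and glutamine carriers 0 higher and 2 lower among 6 (median −0.33). The SLC1 glutamate and small neutral carriers had 1 higher and 3 lower among 5 (median −0.60). SLC36 had 1 of each, and the remaining SLC38 and SLC43 genes also had 1 of each among 5. The differences between these small classes were not tested as sets.

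Length-scaled levels, in CPM per kb of exon, put the carriers on one scale. The length joins all annotated exons of a gene and is not that of the transcript expressed. Close ranks between genes are therefore uncertain beyond what the replicates show. In the control samples SLC7A5 was the most abundant, at 188 CPM per kb, followed by SLC38A2 at 120, SLC3A2 at 71.1, SLC1A5 at 68.7, SLC7A1 at 64.5 and SLC38A1 at 47.4. These 6 genes made up between 87.0% and 89.0% of the summed level of all 40 carriers in each library. The neighbours SLC3A2, at 69.2 to 73.5 CPM per kb in control samples, and SLC1A5, at 66.1 to 71.2, overlapped, whereas SLC7A1, at 63.6 to 65.0, lay below both. In IRF1shRNA samples the order became SLC7A5 (123 CPM per kb), SLC38A2 (88.6), SLC7A1 (71.1), SLC1A5 (65.1), SLC3A2 (52.1) and SLC38A1 (46.6). On GRCh38 (GENCODE 29), SLC7A5 spans chr16:87830023-87869488 on the minus strand, SLC3A2 spans chr11:62856102-62888875 on the plus strand and SLC7A1 spans chr13:29509410-29595688 on the minus strand. SLC7A11 spans chr4:138164097-138242349 (minus), SLC38A2 chr12:46358189-46372867 (minus) and SLC43A3 chr11:57406954-57427580 (minus).

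The summed level of all carriers fell in this measure from 630, 619 and 638 CPM per kb in control replicates 1 to 3 to 510, 508 and 522 in IRF1shRNA replicates 1 to 3. Large neutral carriers accounted for the greatest drop in the sum, from 264 ± 8.36 to 181 ± 7.12 CPM per kb (SD, n = 3 each), with the shared heavy chain SLC3A2 counted among them. Glutamine carriers went from 242 ± 5.28 to 204 ± 3.86, whereas cationic carriers went from 68.8 ± 0.988 to 76.6 ± 1.01 and cystine carriers from 5.91 ± 0.286 to 9.12 ± 0.236 CPM per kb. Cationic carriers therefore formed 10.7% to 11.2% of the summed carrier level in control and 14.9% in each IRF1shRNA sample, and large neutral carriers 41.3% to 42.9% and 34.2% to 36%. Most of the change in each of these 4 class sums lay in a single gene. From control to IRF1shRNA samples, these genes were SLC7A5 (188 to 123 CPM per kb), SLC38A2 (120 to 88.6), SLC7A1 (64.5 to 71.1) and SLC7A11 (5.83 to 8.94). No test was made on the class sums. Fewer cells that express a carrier and less RNA per cell cannot be told apart in bulk RNA.

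**Figure D2:**
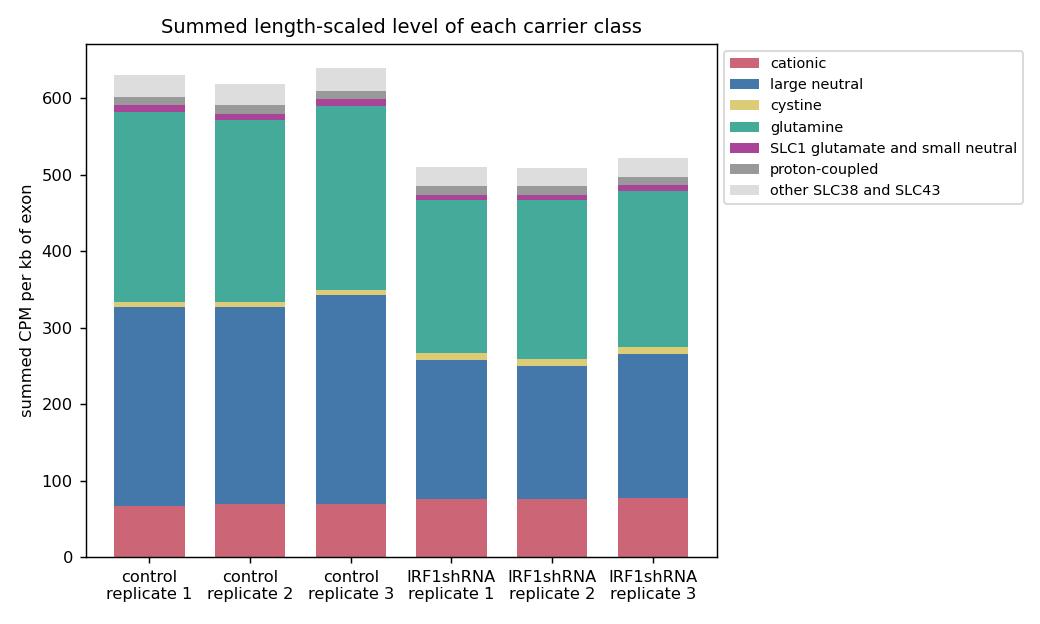
Stacked bars of the summed level of each carrier class (y axis, CPM per kb of exon) in the 6 libraries (x axis). The total is 619 to 638 in control and 508 to 522 in IRF1shRNA samples, and the large neutral layer is the one that shrinks most.

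Among the cationic carriers, SLC7A2 showed the largest change of any member. The controls held 0.503, 0.571 and 0.832 CPM (62, 70 and 124 counts) and the silenced samples 4.37, 5.82 and 6.03 CPM (550, 323 and 992 counts). The groups were far apart, and every library was above the detection limit. SLC7A2 rose 8.38-fold, with a log2 fold change of 3.07 ± 0.17 (SE) and an edgeR adjusted p of 1.29e-10. Its paralog SLC7A1, the main arginine carrier of most proliferating cells, was at 489, 500 and 500 CPM in control, against 543, 543 and 555 CPM in the silenced samples. SLC7A1 thus rose by little but beyond the spread of its replicates (log2 fold change 0.14 ± 0.04, edgeR adjusted p 0.00758). Although SLC7A2 rose more, it remained the scarcer paralog per length, at 0.684 against 71.1 CPM per kb in IRF1shRNA samples.

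The cationic light chains of SLC3A2, which exchange arginine or lysine for neutral amino acids with sodium, were less abundant than SLC7A1. SLC7A7 (y+LAT1) was at 1.75, 1.97 and 1.74 CPM in control and at 2.75, 2.67 and 2.67 CPM in the silenced samples, without overlap. It rose 1.49-fold (log2 fold change 0.57 ± 0.12, edgeR adjusted p 0.00048). SLC7A6 (y+LAT2) ranged from 28.3 to 30.3 CPM in control and from 30.4 to 33.5 CPM in the silenced samples, and its log2 fold change was 0.13 ± 0.06 (edgeR adjusted p 0.0639). It passed the threshold under 6 of the alternatives, library size scaling among them (0.18, edgeR adjusted p 0.0136, in a range from 0.0136 to 0.237 over all of them). The others, SLC7A3, SLC7A4 and SLC7A14, had at most 14 counts in any library and were not tested.

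The 250 bases before to 50 bases after each annotated start were searched on both strands for 4 short motifs, in RefSeq windows of GRCh38.p14 that existed for 31 of the 40 carriers (53 windows, some genes having several starts). The core letters of the interferon-stimulated response element, bound by IRF factors (GAAA, any 2 bases, GAAA), occurred in 2 of these genes, SLC38A4 and SLC7A7, and in 3.57% of 35116 windows of all genes. The match in SLC7A7 ran from −10 to −1 relative to the most upstream of its 3 starts, on the opposite strand, with the start base as 0. The antioxidant response letters TGACNNNGC, bound by NRF2, occurred in 7 of the carriers and in 13.3% of all windows, and those of the amino acid response element bound by ATF4, TGATGNAA, in 6 and in 3.62%. Since a gene can have several windows, counts of genes cannot be set directly against shares of windows: by window, these motifs were found in 2, 7 and 6 of 53. A match is a run of letters only. SLC7A2, SLC7A11 and SLC43A3 were among the carriers without a window, so their promoters were not searched. Antioxidant letters lay in SLC7A1 and SLC7A7, which rose, in SLC1A3, SLC7A5 and SLC3A2, which fell, and in SLC7A6 and SLC1A5, not called. Amino acid response letters lay in SLC7A1, which rose, in SLC1A3 and SLC3A2, which fell, and in SLC1A5, SLC38A1 and SLC1A4, not called. The bases upstream of SLC7A1 are shown because it is the abundant cationic carrier that rose; they lie at chr13:29595689-29595798 on the minus strand, with the antioxidant letters in capitals (−85 to −77). SLC7A1 also holds the amino acid response letters, from 7 to 14 after its start.
SLC7A1: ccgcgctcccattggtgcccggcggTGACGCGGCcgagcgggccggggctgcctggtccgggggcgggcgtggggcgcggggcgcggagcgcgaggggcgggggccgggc

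Large neutral carriers were led by SLC7A5 and SLC3A2, the light and heavy chain of LAT1, which both fell. SLC7A5 was at 876, 873 and 923 CPM in control, against 596, 551 and 610 CPM after silencing. Its log2 fold change was −0.60 ± 0.05 (edgeR adjusted p 1.1e-08), or 65.8% of control. SLC3A2 was at 365, 359 and 381 CPM against 265, 269 and 275 CPM, with a log2 fold change of −0.45 ± 0.04 (edgeR adjusted p 9.37e-08), or 73.2% of control. In both genes the highest IRF1shRNA sample was well below the lowest control.

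SLC43A1 (LAT3) and SLC43A2 (LAT4), which carry leucine and related amino acids by facilitated diffusion without a heavy chain, moved in opposite directions. SLC43A1 fell from 3.95 ± 0.229 to 2.98 ± 0.243 CPM (log2 fold change −0.40 ± 0.10, edgeR adjusted p 0.0034), and SLC43A2 rose from 43.8 ± 3.6 to 53.0 ± 2.13 CPM (0.28 ± 0.06, edgeR adjusted p 0.000526). SLC7A8 (LAT2), the other large neutral light chain, was at 5, 4 and 6 counts in control and 2, 3 and 2 counts in IRF1shRNA samples, which reached no more than the detection limit, and no direction is given for it. SLC7A10 (Asc-1), a carrier of small neutral amino acids and D-serine that was placed in this class although its substrates are smaller, was at 13, 5 and 13 counts against 28, 5 and 24, with a log2 fold change of 1.02 ± 0.50 (edgeR adjusted p 0.101) and a 95% interval from −0.03 to 2.08.

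The bases upstream of SLC7A5 are shown because it is the most abundant carrier and fell. They lie at chr16:87869508-87869657 on the minus strand and hold the E-box letters CACGTG, bound by MYC, in capitals (−130 to −125). E-box letters occurred in 9 of the 31 carriers, 9 of their 53 windows and 7.26% of all windows. Besides SLC7A5 these were SLC38A7, SLC36A1 and SLC43A1, which fell, and SLC7A7, which rose. SLC1A5 and SLC38A5, not called, and SLC7A8 and SLC1A7, not tested, held them too. The antioxidant letters also occur in SLC7A5, from −2 to 6 across its start.
SLC7A5: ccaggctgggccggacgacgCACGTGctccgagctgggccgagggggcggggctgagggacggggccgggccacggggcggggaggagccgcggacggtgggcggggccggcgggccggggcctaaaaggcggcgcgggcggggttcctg

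The cystine carrier SLC7A11 moved against its heavy chain. SLC7A11 was at 58.9, 53.3 and 56.4 CPM in control and at 86.3, 83.7 and 88.7 CPM in the silenced samples, which all exceeded the highest control. It rose 1.54-fold (log2 fold change 0.62 ± 0.05, edgeR adjusted p 5.39e-09). SLC7A9, the light chain that with SLC3A1 takes up cystine and cationic amino acids in kidney and intestine, was scarce, at 0.073, 0.139 and 0.174 CPM in control and 0.397, 0.45 and 0.267 CPM in the silenced samples (9 to 26 against 25 to 50 counts). Its log2 fold change was 1.47 ± 0.39 (edgeR adjusted p 0.00458), with a 95% interval from 0.64 to 2.30. Only in the silenced group did every library reach the count filter. SLC3A1 was at 0.101 to 0.325 CPM and 0.180 to 0.310 CPM, with overlapping groups (log2 fold change 0.39 ± 0.41, edgeR adjusted p 0.463). SLC7A13 had no count in any library.

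**Figure D3:**
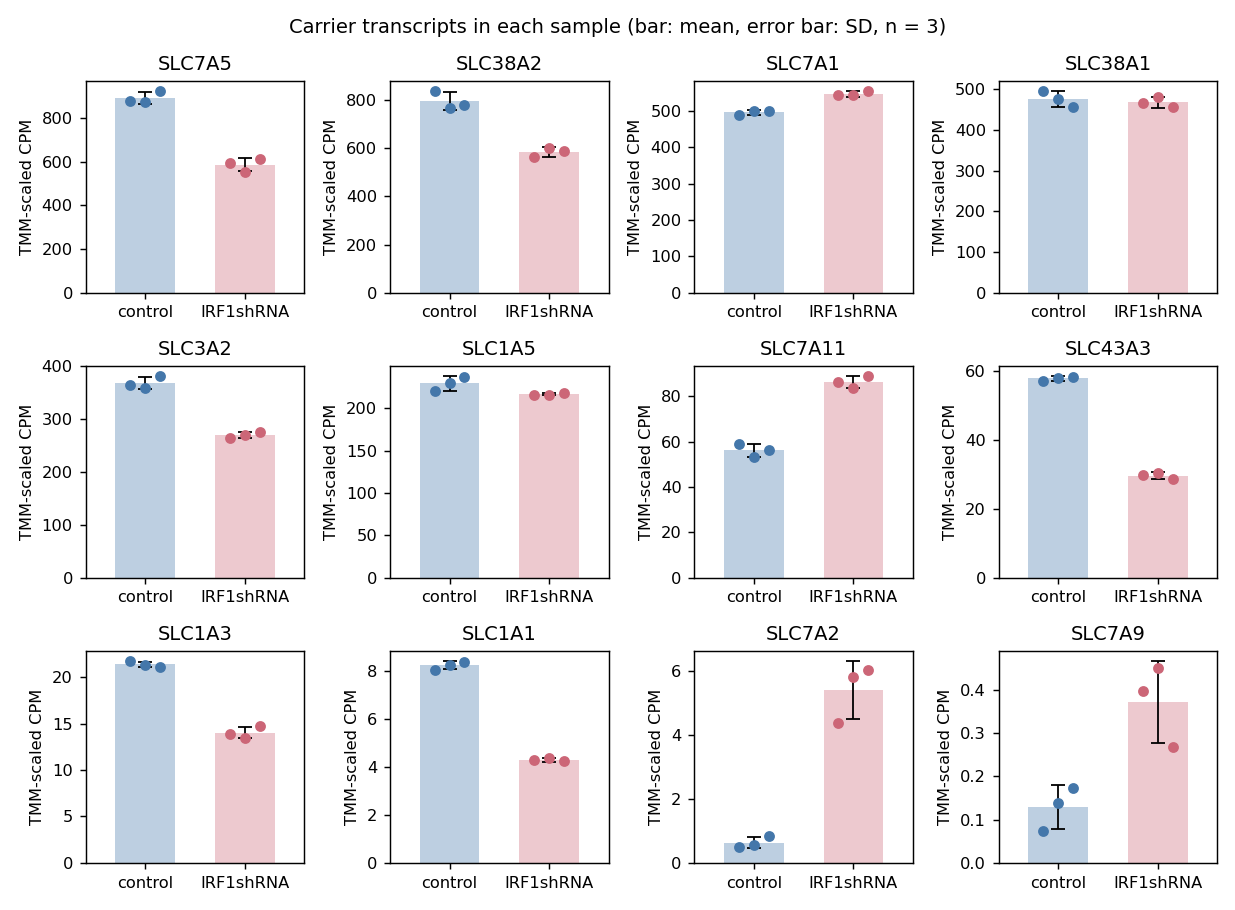
CPM (y axis, from 0, a separate scale for each gene) of 12 carriers in control and IRF1shRNA samples (x axis), where points are samples, bars means and error bars SD (n = 3). SLC7A5, SLC38A2, SLC3A2, SLC43A3, SLC1A3 and SLC1A1 are lower in every IRF1shRNA sample, SLC7A1, SLC7A11, SLC7A2 and SLC7A9 are higher, SLC38A1 overlaps between the groups, and SLC1A5, which was not called, lies at 216 to 218 CPM below controls of 220 to 237 CPM.

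Of the abundant glutamine carriers only SLC38A2 was called. SLC38A2, which cells raise when amino acids run short, was at 838, 767 and 781 CPM in control and at 562, 603 and 589 CPM in the silenced samples. It fell to 73.5% of control (log2 fold change −0.44 ± 0.05, edgeR adjusted p 4.23e-07). SLC38A1 was at 495, 475 and 455 CPM against 465, 481 and 456 CPM, so that the groups overlapped. Its log2 fold change was −0.02 ± 0.04 (edgeR adjusted p 0.693), with a 95% interval from −0.12 to 0.07, and it changed sign under upper quartile scaling, library size scaling and a stricter filter. SLC1A5 was at 220, 230 and 237 CPM against 216, 216 and 218 CPM, a log2 fold change of −0.08 ± 0.04 (edgeR adjusted p 0.132) with an interval from −0.17 to 0.01. A loss of SLC1A5 or SLC38A1 as large as that of SLC38A2 lay outside these intervals.

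SLC38A7 (SNAT7), which exports glutamine from lysosomes, was at 36.2, 34.9 and 39.4 CPM in control, against 23.6, 21.7 and 25.3 CPM in the silenced samples, without overlap. It fell to 64.1% of control (log2 fold change −0.64 ± 0.07, edgeR adjusted p 2.76e-07). SLC38A5 (SNAT5) was at 0.398, 0.294 and 0.355 CPM against 0.222, 0.180 and 0.249 CPM. The groups did not overlap, but with 10 to 53 counts per library its log2 fold change of −0.64 ± 0.32 did not pass the test (edgeR adjusted p 0.102). SLC38A3 had 5 to 34 counts (−0.22 ± 0.46, edgeR adjusted p 0.722), and SLC38A8, with at most 7 counts, was not tested.

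Because the scaling of libraries cancels in a ratio of carriers within a library, 6 pairs were compared as log2 ratios of counts (with 0.5 added to each), which are not levels per length. SLC7A2 relative to SLC7A1 went from −9.91, −9.76 and −9.22 in control to −6.96, −6.54 and −6.52 in IRF1shRNA samples, a difference of 2.96. SLC7A11 relative to its heavy chain SLC3A2 went from −2.63, −2.75 and −2.76 to −1.62, −1.68 and −1.63, a difference of 1.07. Conversely, SLC7A5 relative to SLC3A2 went from 1.26, 1.28 and 1.28 to 1.17, 1.04 and 1.15, a difference of −0.16. The shared heavy chain thus had more SLC7A11 and less SLC7A5 transcript beside it in every IRF1shRNA library than in any control.

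Among the glutamine carriers, the ratio of SLC38A1 to SLC38A2 rose by 0.42, from a mean of −0.74 ± 0.05 to −0.32 ± 0.05 (SD, n = 3 each), and that of SLC1A5 to SLC38A2 by 0.36, from −1.79 ± 0.12 to −1.43 ± 0.05. In each of these 5 pairs no IRF1shRNA library overlapped a control. All 5 reached p = 0.10 in a two-sided exact permutation test, the smallest that 3 against 3 samples allow, and 0.12 after adjustment over the 6 pairs, so that this design cannot take them past 0.05. The sixth, SLC7A8 to SLC7A5, differed by −0.03 (exact permutation p = 1.0) but rested on 2 to 6 counts of SLC7A8.

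**Figure D4:**
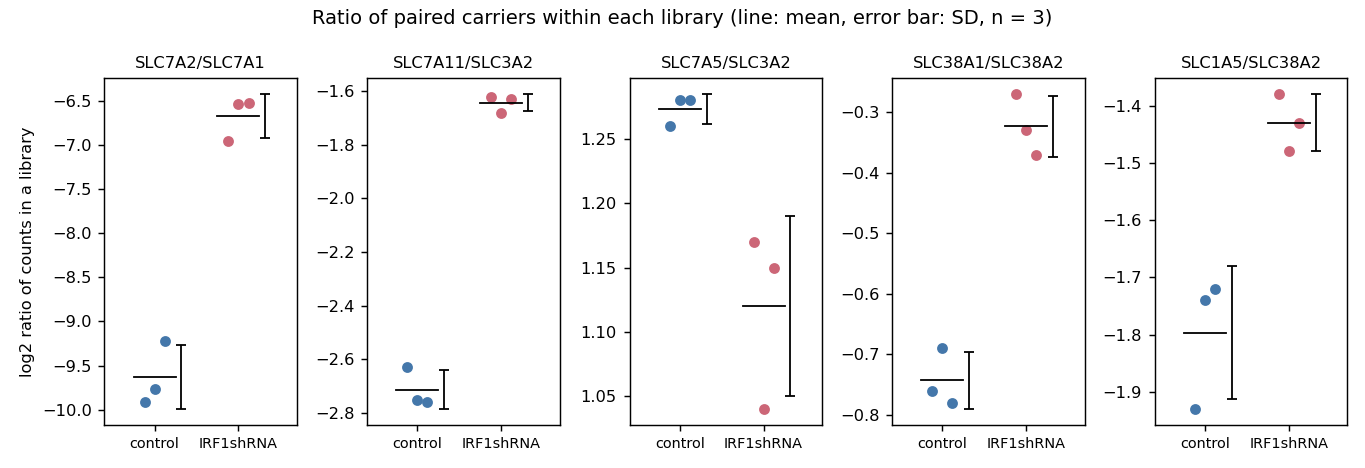
Log2 ratio of counts of paired carriers within a library (y axis, a separate scale for each pair that does not start at 0) in control and IRF1shRNA samples (x axis); points are libraries, lines means and error bars SD (n = 3). The ratio is higher in every IRF1shRNA library for 4 pairs, by 0.36 to 2.96, and lower for SLC7A5/SLC3A2, by 0.16.

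In the SLC1 family the high-affinity glutamate and aspartate carriers of the membrane changed in both directions. SLC1A1 (EAAT3), which also takes up cysteine, was at 8.07, 8.27 and 8.40 CPM in control and at 4.28, 4.40 and 4.25 CPM in the silenced samples, and it fell to 52.1% of control (log2 fold change −0.94 ± 0.08, edgeR adjusted p 2.11e-08). SLC1A3 (EAAT1, GLAST) was at 21.7, 21.3 and 21.1 CPM against 13.9, 13.5 and 14.7 CPM (−0.60 ± 0.06, edgeR adjusted p 3.98e-07). The spread within each group was small beside these differences, and the groups of neither gene overlapped.

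SLC1A2 (EAAT2, GLT-1), the main glutamate carrier of astrocytes, was scarce here and rose, from 0.584, 0.302 and 0.483 CPM to 1.21, 1.08 and 0.911 CPM (37 to 72 against 60 to 153 counts). Its log2 fold change was 1.22 ± 0.24 (edgeR adjusted p 0.000342). SLC1A6 (EAAT4) was at 0.365, 0.367 and 0.295 CPM in control and at 0.143, 0.036 and 0.207 CPM in the silenced samples, where IRF1shRNA replicate 2 held 2 counts, under the detection limit. Its log2 fold change of −1.23 ± 0.40 (edgeR adjusted p 0.0175) moved to −0.94 without that library and to −1.71 without IRF1shRNA replicate 3, and it lost the call without control replicate 2 (−1.18, adjusted p 0.0559, in a range from 0.00372 to 0.0559 over the alternatives). SLC1A4 (ASCT1), a carrier of alanine, serine and cysteine, ranged from 21.3 to 21.9 CPM in control and from 21.7 to 23.0 CPM after silencing, and its log2 fold change was 0.05 ± 0.06 (edgeR adjusted p 0.555).

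Sequence upstream of the most distal of the 3 SLC1A3 starts is shown because this carrier fell and the bases hold the amino acid response letters TGATGNAA, in capitals (−220 to −213). They lie at chr5:36596353-36596587 on the plus strand, outside the GENCODE span of SLC1A3 (chr5:36606355-36688334). The SLC1A3 window at chr5:36606356-36606655 held the antioxidant letters but not the amino acid response letters. Which start these cells use was not tested. As listed above, the amino acid response letters also lay in carriers that rose or were not called.
SLC1A3: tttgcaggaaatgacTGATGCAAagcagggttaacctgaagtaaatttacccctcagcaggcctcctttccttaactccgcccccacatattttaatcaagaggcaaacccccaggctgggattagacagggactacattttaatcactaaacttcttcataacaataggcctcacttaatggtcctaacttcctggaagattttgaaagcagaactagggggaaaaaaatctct

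The remaining families also split. SLC36 is named here as the proton-coupled family, a label that was not checked for each member. Its SLC36A1 (PAT1), a lysosomal exporter, was at 38.2, 37.5 and 35.7 CPM in control and at 28.0, 27.7 and 27.9 CPM in the silenced samples. SLC36A1 fell (log2 fold change −0.41 ± 0.05, edgeR adjusted p 3.42e-06). SLC36A4 (PAT4), which carries proline and tryptophan, was at 56.6, 53.2 and 50.0 CPM against 69.9, 73.2 and 70.6 CPM, and it rose (0.42 ± 0.05, edgeR adjusted p 1.12e-06). SLC43A3, a family member known to carry purine nucleobases rather than amino acids, was among the carriers that fell (edgeR adjusted p 2.23e-11). It was at 57.2, 58.2 and 58.4 CPM in control and at 30.0, 30.4 and 28.6 CPM in the silenced samples, a log2 fold change of −0.97 ± 0.05. SLC38A10 rose from 84.8 ± 5.58 to 98.4 ± 0.396 CPM (0.21 ± 0.05, edgeR adjusted p 0.00105). SLC38A9, the lysosomal arginine sensor of mTORC1, was at 0.08 ± 0.06, SLC38A6 at 0.12 ± 0.08 and SLC38A4 at 0.23 ± 0.35 on the log2 scale, and none was called (edgeR adjusted p 0.290, 0.251 and 0.626).

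Amino acid carriers of other families were read from a separate list. Of 28 listed genes 17 were tested, with 3 higher and 8 lower (median log2 fold change −0.19). SLC6A9, the glycine carrier GLYT1, fell by 0.64 on the log2 scale and SLC6A15, a neutral amino acid carrier, by 0.62, while SLC6A6, the taurine carrier, rose by 0.44 and SLC25A44, the mitochondrial carrier of branched-chain amino acids, by 0.35. The vesicular glutamate carrier SLC17A7 fell from 2.15 ± 0.330 to 0.700 ± 0.276 CPM (log2 fold change −1.53 ± 0.21, edgeR adjusted p 7.62e-06).

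Enzymes that use the carried amino acids had 6 higher and 7 lower among 19 tested of 21 (median −0.12). ARG2, the mitochondrial arginase, rose from 1.03, 0.914 and 1.01 CPM to 4.48, 3.73 and 4.27 CPM (log2 fold change 2.08 ± 0.12, edgeR adjusted p 2.41e-10), and ASS1, which makes argininosuccinate for arginine synthesis, rose from 16.6 ± 2.16 to 27.6 ± 1.30 CPM (0.73 ± 0.08). The cytosolic branched-chain aminotransferase BCAT1 rose by 0.64 on the log2 scale, and the mitochondrial form BCAT2 fell by 0.54. NOS3, at 19 to 22 counts in control and 1 to 10 in IRF1shRNA samples, had a log2 fold change of −1.93 ± 0.58 (edgeR adjusted p 0.00977), which lost the call without IRF1shRNA replicate 3 (−1.45, adjusted p 0.0769, in a range from 0.00283 to 0.0769) and became −3.05 without IRF1shRNA replicate 1. The other IRF1shRNA libraries held 1 and 3 counts, no more than the detection limit, so the size of this fall is uncertain.

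Regulators of carrier expression and of amino acid sensing had 6 higher and 12 lower among 27 tested (median −0.12). DDIT3 (CHOP), a transcription factor of the stress response, fell by 0.68 on the log2 scale, RRAGB, a Rag GTPase that recruits mTORC1 to lysosomes, by 0.70, and NEDD4L, a ubiquitin ligase, by 0.50. MTOR itself was at 212 ± 4.02 CPM in control, against 324 ± 6.22 CPM in the silenced samples (0.61 ± 0.04, edgeR adjusted p 1.15e-09), and CASTOR2, of the arginine-sensing CASTOR family, rose by 0.48. All 3 lists were chosen with earlier results of these data known, and the shares called among their tested genes, 64.7%, 68.4% and 66.7%, stand beside 50.5% of all genes.

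Exons of 12 of the 30 tested carriers overlap those of another annotated gene (GENCODE 29): SLC7A5, SLC7A6, SLC7A9, SLC7A10, SLC7A11, SLC1A2, SLC1A5, SLC1A6, SLC3A1, SLC38A6, SLC38A10 and SLC43A3. For SLC3A1, SLC38A6 and SLC43A3 a neighbour lies on the same strand. As the setting for strand in counting was not given in the sources used here, the values of these genes may include or lack reads shared with their neighbours.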

How the data were processed

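RNA from 3 control and 3 IRF1shRNA samples of BT-549 cells was prepared with a stranded mRNA kit. The deposited values are whole counts for each gene symbol without normalization. The submitters' processing notes name CASAVA 1.8.2, STAR 2.7.9a, featureCounts, DESeq2 1.24.0 and GRCh38.p7. The annotation, the strand setting and the counting of read pairs are not given in the sources used here. In each library 72.1% to 75.2% of counts from 2 to 11 were even, so mates may have been counted separately, and halved counts were tried.

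The counts were fitted with edgeR 4.0.16 (R 4.3.3) by the quasi-likelihood test with group as the factor, TMM scaling, filterByExpr (minimum count 10) and Benjamini-Hochberg adjustment over 18851 genes, after tests on simulated data. DESeq2 1.42.0 was an alternative. The SE of a log2 fold change is its size over the square root of F. Detection limits cover counting error only. Replicates of a group differed by more than sampling noise (chi-square per degree of freedom of halved counts 5.65 to 13.9). Lengths and overlaps came from GENCODE 29, and promoter windows from RefSeq on GRCh38.p14.

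Values in every sample were given for carriers named in the question and any other called carrier past 0.5 on the log2 scale, and other lists were represented by up to 5 called genes with the largest changes. Members and lists were chosen with earlier results of these data known. No promoter window was used for SLC7A2, SLC7A3, SLC7A4, SLC7A11, SLC7A13, SLC1A2, SLC3A1, SLC38A3 or SLC43A3.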

Additional observations from a re-analysis of the deposited data

How the results depend on the processing

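Across the alternatives (DESeq2, 3 other scalings, 2 other filters, halved counts, libraries thinned to the smallest total, the replicate block and 6 fits that each left out 1 replicate), 428 of 440 values for the carriers stayed in direction and on the same side of the threshold, 1 became weaker, 6 stronger and 5 reversed. The number of carriers past both thresholds went from 4 to 1 when 1 CPM was required in 3 or more samples, which leaves 22 carriers and does not test SLC7A9, SLC1A2 and SLC1A6. SLC38A1 reversed under that filter (0.00027), upper quartile scaling (0.02) and library size only (0.026), and lay between −0.051 and 0.0049 when 1 replicate was left out. SLC38A3 ranged there from −0.61 to 0.092. At a threshold of 0.01, which was applied to the counts of calls alone, 9 carriers were higher, 9 lower and 3 past both thresholds, SLC1A6 being lost. The 6 stronger values all belonged to SLC7A6, and the weaker one to SLC1A6. The ratio SLC7A8/SLC7A5 changed sign to 0.48 with 5 added to each count and ranged from −0.70 to 0.40 without 1 library. Same-numbered samples did not deviate together (correlations 0.0137, 0.025 and −0.00724), and the replicate block gave 9 carriers higher, 10 lower and 4 past both thresholds, as without it. The median over all genes, −0.0024, became 0.041 under upper quartile scaling and 0.049 with library size only. Depth limits the scarce carriers SLC7A10, SLC3A1, SLC38A3, SLC38A4, SLC38A5, SLC7A9 and SLC1A6, at no more than 53 counts in a library. Their standard errors were 0.32 to 0.50 on the log2 scale. SLC7A9 and SLC1A6 are among the 4 carriers past both thresholds, so this limit bears on that number too.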
